A study of Mus musculus with 4 samples.

Results

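Dapl1, Pappa2, Spp1, Gucy2c, Ttyh1 and Nucb2 are 6 of the 32285 genes in single-cell RNA sequencing libraries of mouse pancreatic islets. They were picked because they mark many insulin-producing cells of high-fat-fed Pax4 mutant mice, so their levels in those cells chose them and are given here as a description. The islets came from male C57BL6/N littermates, either Pax4 WT (wildtype) or Pax4 HH, which carry on both alleles a knock-in missense change made to match a human variant. Mice on standard chow (SCD) were 12 weeks old, and mice fed a high-fat diet (HFD) for 4 weeks were 16 weeks old. Each of the 4 groups is 1 library, made from the pooled islets of 2 to 3 mice. A difference between groups thus has no replicate check and cannot be told apart from one between libraries, and a difference between diets cannot be told apart from one of age. Intervals are 95% intervals of the counting error alone. Values for the 4 libraries are given in the order WT SCD, HH SCD, WT HFD and HH HFD unless stated.

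Beta cells make insulin in the endoplasmic reticulum and store it in granules, and Pax4 is a transcription factor needed for their formation in the embryo. Dapl1 encodes death-associated protein-like 1, a small protein that binds dormant ribosomes in eggs. Pappa2 encodes a secreted metalloproteinase that releases insulin-like growth factor (IGF) from its binding proteins, and Spp1 encodes osteopontin, a secreted phosphoprotein that binds integrins and CD44. Gucy2c is the receptor guanylyl cyclase for guanylin and uroguanylin and is best known from the intestine, Ttyh1 is a tweety family membrane protein linked to anion currents, and Nucb2 is a calcium-binding protein of the secretory pathway and the precursor of nesfatin.

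The libraries held between 68011082 and 104810105 unique molecular identifiers (UMIs, each 1 counted transcript). After filters, 12404 cells remained, of which 7857 were beta-like (2013, 1957, 1125 and 2762). Ins1 and Ins2 made up between 54.4% and 55.9% of the UMIs of these cells, and their median depth lay between 24102 and 29785 UMIs. Only 38.3% of the WT HFD barcodes passed the filters, against 61.6% to 67.8% in the other libraries. Between 21 and 29 barcodes of a library also occurred in another library. Pax4 itself had 0 UMIs in all barcodes, which leaves no check of the genotype labels on it. Beta-like cells fell into several clusters that were not shared evenly between the groups. In HFD, 915 of the 1125 WT cells lay in cluster 4, while 966 of the 2762 HH cells lay there and 1609 lay in cluster 5, a cluster led by Dapl1 although the 6 genes were left out of the clustering.

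Dapl1 lies on chromosome 2 from 59484653 to 59505020 on the plus strand (GRCm38, GENCODE M21, protein coding), and no other annotated gene overlaps it. The 250 bases before its start (chr2:59484403-59484652, plus strand, RefSeq sequence of GRCm38.p6) are shown because Dapl1 leads cluster 5, and those before the RefSeq start of Ttyh1 (chr7:4119280-4119529, plus strand) because they hold a match in common with it. Capitals mark matches to motifs searched on both strands.
Dapl1: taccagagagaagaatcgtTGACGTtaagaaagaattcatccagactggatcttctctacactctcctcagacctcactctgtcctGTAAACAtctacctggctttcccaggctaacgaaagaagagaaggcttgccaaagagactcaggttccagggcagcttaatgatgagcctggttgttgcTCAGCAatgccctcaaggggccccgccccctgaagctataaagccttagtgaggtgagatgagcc
Ttyh1: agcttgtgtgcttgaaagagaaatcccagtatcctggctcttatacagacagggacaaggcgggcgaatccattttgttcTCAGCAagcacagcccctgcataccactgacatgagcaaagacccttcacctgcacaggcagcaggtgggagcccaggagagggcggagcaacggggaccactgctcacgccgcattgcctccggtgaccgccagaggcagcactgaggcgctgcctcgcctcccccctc
The Dapl1 window held 1 match each to the cyclic AMP response element core TGACGT, the forkhead motif TGTTTAC and the MAF core TGCTGA, which occur in 6.56%, 3.09% and 15.8% of the 27025 windows of the same length. The Ttyh1 window held the MAF core only. The matches do not overlap each other. The windows of Pappa2, Spp1 and Nucb2 held none of the 6 motifs searched, which also included TAATTA (4.90% of windows), TTCNNNGAA (7.18%) and CACGTG (6.05%). A match is a description of the letters, not of binding. The RefSeq starts of Pappa2 and Ttyh1 lie 22315 and 122 bases inside the genes as GENCODE draws them.

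The level of Dapl1 in beta-like cells was 63.9, 84.6, 109.6 and 309.9 CPM, which are UMIs of the gene per 1000000 UMIs summed over the class. The HH HFD library thus stood apart from the other 3, and no 2 of the 4 counting intervals overlapped (61.8 to 66.1, 82.1 to 87.1, 106 to 113 and 306 to 314 CPM). The log2 ratio of HH over WT was 1.5 in HFD (interval 1.45 to 1.55), a 2.83-fold higher level. In SCD, whose part in the choice of genes is not known, it was 0.40 (0.34 to 0.47), or 1.32-fold. Between the diets the log2 ratio of HFD over SCD was 0.78 in WT and 1.87 in HH. These diet ratios rest on the same 4 libraries as the genotype ratios and are not separate evidence.

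**Figure D1:**
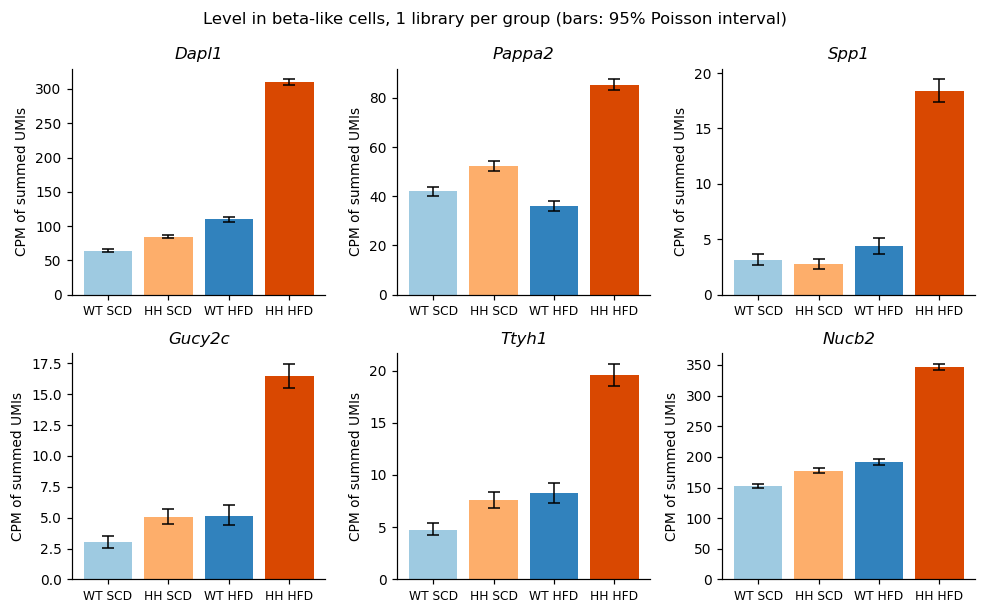
CPM of summed UMIs (vertical axis, from 0) of the 6 genes in beta-like cells of the 4 libraries, with bars for the 95% Poisson interval. HH HFD holds the highest level in all 6 panels, and for Pappa2 the WT HFD level of 36.1 CPM is the lowest of the 4.

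Nucb2 (chromosome 7, 116504369 to 116540584, plus strand, no overlapping gene) was detected in most beta-like cells of every library. Without thinning, between 91.8% and 96.5% of the cells of a library held a UMI of it. Its level was 153, 178, 192 and 347 CPM in the 4 libraries. The order was the same as for Dapl1, with a smaller ratio of HH over WT, a log2 of 0.86 in HFD (0.82 to 0.90) and of 0.22 in SCD (0.18 to 0.26).

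Pappa2 (chromosome 1, 158711727 to 158980490, minus strand) stood at 42.0, 52.4, 36.1 and 85.4 CPM, lowest in WT HFD. The log2 of HH over WT was 1.24 in HFD (1.15 to 1.33) and 0.32 in SCD (0.24 to 0.40). The SCD ratio was not the same in all clusters. In cluster 0, with 781 HH and 638 WT cells of SCD, it was -0.25 (-0.38 to -0.12). It was 0.22 in cluster 1, 0.73 in cluster 2 and 0.53 in cluster 4, and the intervals of clusters 3 and 14 held 0. Pappa2 was the only member whose diet ratio had opposite signs in the genotypes, with a log2 of HFD over SCD of -0.22 in WT (-0.32 to -0.12) and 0.71 in HH (0.64 to 0.77). The WT value was 0.13 with a looser filter on cells. Among cells of 20000 to 30000 UMIs the HH value was 1.41 and the WT value -0.34, and the HFD ratio of HH over WT was 2.20. The annotated gene 1600012P17Rik, which overlaps Pappa2 on the same strand, was at 0 UMIs throughout the beta-like cells.

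The membrane proteins Gucy2c and Ttyh1 were expressed at low levels. Gucy2c (chromosome 6, 136697284 to 136781765, minus strand, no overlapping gene) stood at 3.00, 5.07, 5.17 and 16.4 CPM. Its HH over WT log2 ratio was 1.67 in HFD (1.44 to 1.91) and 0.75 in SCD (0.47 to 1.04). Ttyh1 (chromosome 7, 4119408 to 4136708, plus strand) stood at 4.77, 7.60, 8.24 and 19.5 CPM, with ratios of 1.25 (1.06 to 1.44) and 0.67 (0.44 to 0.90). For both genes HH SCD and WT HFD could not be separated by their counting intervals, WT SCD lay below them and HH HFD above. The opposite-strand genes that overlap Ttyh1, 9430041J12Rik and D030047H15Rik, had at most 2 and 6 UMIs in a library.

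Spp1 (chromosome 5, 104435118 to 104441050, plus strand) differed from the others in SCD. Its level was 3.15, 2.76, 4.37 and 18.4 CPM. The gene Gm42793, which overlaps it on the same strand, was not analysed here. The HFD ratio of HH over WT was the highest of the 6, a log2 of 2.07 (1.82 to 2.33), while the SCD ratio of -0.19 had an interval that held 0 (-0.52 to 0.14). The SCD value rested on 171 and 144 UMIs and was 0.36 with predicted doublets kept and -1.38 with an insulin gate in place of clusters. Subtracting an estimate of free RNA left no Spp1 in WT SCD, so the level there is not above that background and the SCD ratio has no value under that alternative.

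In HFD all 6 members were at least 1.5-fold higher in HH, where 0.662% of the 8303 genes with a mean of at least 5 CPM were. Since this contrast chose the members, nothing is read from that count. Gucy2c and Spp1 reached the mean of 5 CPM only through HH HFD, so the counts that follow cover the other 4 members. In SCD 1 of these 4 was 1.5-fold higher in HH (Ttyh1), against 0.12% of all genes. Gucy2c, at 0.75, was past that fold as well, but among cells of 20000 to 30000 UMIs its ratio was 0.44, while Dapl1 (0.62) and Ttyh1 (1.13) were past it. At 2-fold none of the 4 passed in SCD, against 0.0241% of all genes. At 1.5-fold none of the 4 was lower in either diet (all genes 2.08% in HFD and 0.337% in SCD). Over all 6 members, Gucy2c and Spp1 included, the median ratio of HH over WT was 1.37 in HFD, the contrast that chose them, and 0.36 in SCD. For all genes it was -0.14 in HFD and -0.09 in SCD. With scaling to the median of genes, which takes out that shift, the HFD ratios were 1.63 for Dapl1, 1.37 for Pappa2, 2.21 for Spp1, 1.80 for Gucy2c, 1.38 for Ttyh1 and 0.99 for Nucb2. Ranked from the highest ratio in SCD, Ttyh1 was gene 6 of 8303, Dapl1 26, Pappa2 47 and Nucb2 132. For HFD over SCD, 2 of the 4 (Dapl1 and Ttyh1) were 1.5-fold higher in WT (all genes 1.23%) and 4 of 4 in HH (all genes 2.25%), and none was 1.5-fold lower (all genes 4.29% and 6.61%). The WT ratio of Gucy2c, 0.78, was 0.15 among cells of 20000 to 30000 UMIs. These diet counts share the HFD libraries with the genotype counts.

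The groups also differed within a cluster that both genotypes filled. In cluster 4 the level of Dapl1 was 107 CPM in 915 WT HFD cells and 151 CPM in 966 HH HFD cells. The log2 ratios of HH over WT there were 0.50 for Dapl1 (0.42 to 0.57), 0.96 for Pappa2 (0.85 to 1.07), 1.49 for Spp1 (1.17 to 1.82), 0.84 for Gucy2c (0.52 to 1.17), 0.58 for Ttyh1 (0.33 to 0.84) and 0.48 for Nucb2 (0.42 to 0.53). Each of these 6 ratios was below the one over all beta-like cells. The HFD contrast chose the members, so nothing is read from their common direction. In cluster 5, which held 1609 HH and 61 WT cells of HFD, Dapl1 stood at 401 CPM in HH and 187 in WT, and Pappa2 at 93.3 and 22.7. The ratios there were 2.04 for Pappa2, 2.35 for Spp1, 1.74 for Ttyh1 and 0.91 for Nucb2, above those over all beta-like cells. For Dapl1 (1.10) and Gucy2c (0.75) they were below. Over the beta-like cells outside cluster 5, 1064 in WT and 1153 in HH, the ratios of HH over WT were 1.75 for Spp1, 1.02 for Gucy2c, 0.95 for Pappa2, 0.59 for Ttyh1, 0.51 for Dapl1 and 0.50 for Nucb2. Smaller clusters were less clear. In cluster 14, with 34 HH and 30 WT cells of HFD, the intervals of Dapl1 (0.29), Pappa2 (0.40), Gucy2c (1.91) and Ttyh1 (-0.68) held 0, while those of Spp1 and Nucb2 lay above 0. In cluster 3, with 132 HH and 63 WT cells, only the interval of Ttyh1 held 0.

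The distribution over cells was compared after each cell had been thinned at random to 3000 UMIs, so that depth is equal and no cell was left out. A Dapl1 UMI was then found in 15%, 19.9%, 24.3% and 40.8% of beta-like cells (39.0% to 42.7% for HH HFD). Without thinning the shares were 57.0%, 65.2%, 71.9% and 82.6%. Endothelial-like cells, which should lack Dapl1, held a UMI in 1.57%, 2.25%, 2.05% and 2.604% of thinned cells, at median depths between 5812 and 7127 UMIs before thinning. Cells with 3 or more Dapl1 UMIs after thinning made up 8.91% of HH HFD beta-like cells (246 cells) and 0.695%, 0.664% and 1.69% in the other libraries. The variance of the thinned Dapl1 counts was 2.95 times their mean in HH HFD and between 1.24 and 1.47 times elsewhere, a ratio that can rise with the mean. The 10% of cells with most Dapl1 held 47.9%, 43.6%, 42.7% and 49.3% of its UMIs without thinning. In all, 59.2% of HH HFD beta-like cells had none at this depth.

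**Figure D2:**
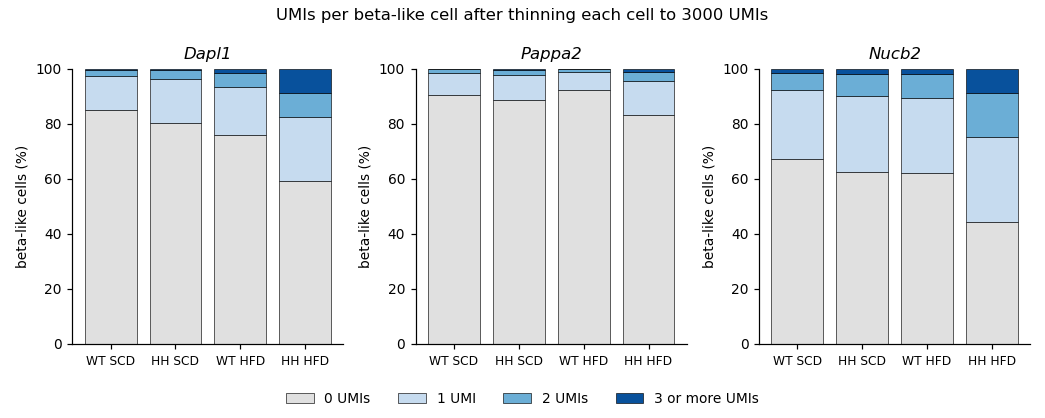
Share of beta-like cells (vertical axis, percent) with 0, 1, 2 or at least 3 UMIs of Dapl1, Pappa2 and Nucb2 after each cell was thinned to 3000 UMIs, by library. Cells with at least 3 UMIs reach 8.91% for Dapl1 and 8.73% for Nucb2 in HH HFD, and 1.12% for Pappa2.

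The thinned share of Nucb2 was 32.7%, 37.6%, 38.0% and 55.8%, and in HH HFD the 10% of cells with most Nucb2 held 27.1% of its unthinned UMIs, a smaller part than for Dapl1. In endothelial-like cells the Nucb2 share was 11.02%, 7.87%, 11.6% and 13.5%. Pappa2 was found in 9.44%, 11.3%, 7.82% and 16.9% of thinned beta-like cells (endothelial-like 2.36%, 3.37%, 0.685% and 3.12%). Gucy2c was found in 0.845%, 1.18%, 1.60% and 3.802%, and Ttyh1 in 1.49%, 1.58%, 1.60% and 4.85%. In endothelial-like cells Gucy2c and Ttyh1 had no UMI after thinning in any library, which allows a share of up to 2.86%, 4.06%, 2.49% and 1.90% at the upper exact limit. Outside HH HFD these limits lie above the beta-like shares of both genes, so the shares could not be separated from that background at this depth. Without thinning, 26.9% of HH HFD beta-like cells held a Gucy2c UMI and 26.9% a Ttyh1 UMI, against 12.0% and 18.0% in WT HFD.

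Spp1 was found in few beta-like cells. Its thinned share was 1.09%, 0.766%, 1.60% and 3.08%, and in HH HFD the 28 cells with most Spp1 UMIs (1%) held 53.3% of the 1258 Spp1 UMIs. The corresponding 1% held 54.4%, 47.9% and 46.9% in WT SCD, HH SCD and WT HFD, of between 144 and 171 UMIs in a library. After thinning, 12 HH HFD cells held 3 or more Spp1 UMIs and 0 cells of the other libraries did. Without the 1% of cells the HFD ratio of HH over WT was 1.89. In the 28 HH HFD cells Dapl1 stood at 1134 CPM, against 299.8 CPM in the other 2734 beta-like cells. Ppy, the pancreatic polypeptide gene, stood at 3604 CPM in these cells and 731 CPM in the rest, and Krt19, a ductal keratin, had 0 UMIs in them. In the corresponding 1% Ppy was also higher than in the rest in HH SCD (1976 against 471 CPM). It was lower in WT SCD (214 against 412 CPM) and WT HFD (146 against 289 CPM). The 6 PP cell markers summed to 705, 791, 619 and 1208 CPM in beta-like cells, and at most 1 of them (Vtn, in HH SCD) was at 0. The 7 alpha cell markers summed to 514, 598, 364 and 644 CPM with none at 0, and the 6 endothelial markers to 4.79, 4.53, 5.12 and 22.2 CPM. The part of these markers in the member levels was not tested.

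Detection of several members in 1 cell was compared with the product of their single shares. In HH HFD, 10.2% of thinned beta-like cells (9.07% to 11.4%) held UMIs of 3 or more members, where the product of the shares gives 7.18%. The shares were 1.54%, 2.30% and 2.76% in WT SCD, HH SCD and WT HFD, with products of 0.751%, 1.26% and 1.32%. For detection of 3 or more members the share lay above the product in all 4 libraries, while of the 15 pairs of members 8, 7, 7 and 11 lay above theirs. At 10000 UMIs per cell, 41.4% of HH HFD cells held 3 or more members and 12.7% held 4 or more, against 15.4% and 1.97% in WT HFD, with 17 and 6 shallower cells left out.

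Pappa2 and Nucb2 formed the most closely related pair. The Pearson r of their log-normalised values over beta-like cells was 0.40, 0.42, 0.39 and 0.42. In HH HFD, 69.7% of cells with a thinned Pappa2 UMI also held Nucb2, against 53.0% of the rest, and in WT HFD 59.1% against 36.3%. Dapl1 and Nucb2 had an r of 0.28, 0.30, 0.22 and 0.40, and Dapl1 and Pappa2 0.27, 0.29, 0.16 and 0.17. The pair of Dapl1 and Gucy2c went from 0.03 and 0.02 in the SCD libraries to 0.17 and 0.26 in WT HFD and HH HFD. Spp1 had an r between 0.02 and 0.13 with the other members in HH HFD.

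**Figure D3:**
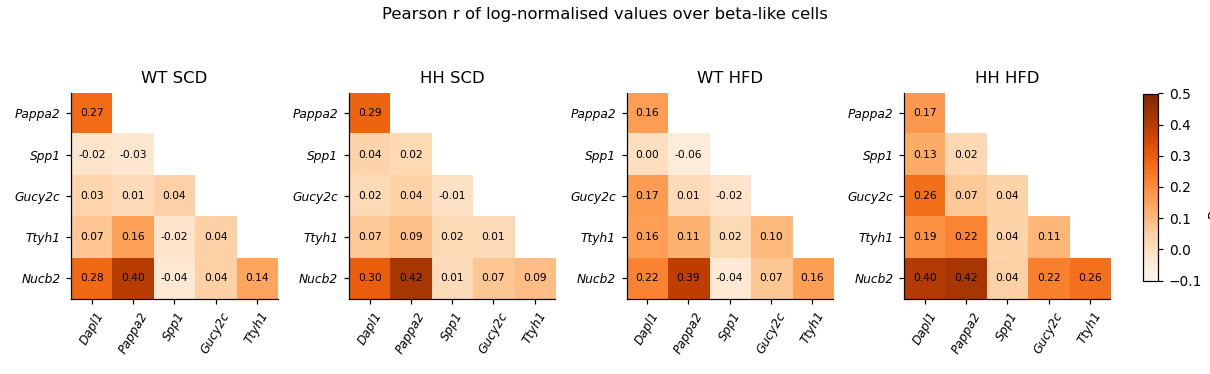
Pearson r of log-normalised values for the 15 pairs of members across beta-like cells, by library (2013, 1957, 1125 and 2762 cells). The pair of Pappa2 and Nucb2 is the highest in each library, at 0.39 to 0.42, and the row of Spp1 is near 0 except for Dapl1 in HH HFD (0.13).

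These cells share a library, its free RNA and a range of depth, and in HH HFD the r of a member with the log of total UMIs reached 0.49 for Nucb2 and 0.41 for Dapl1. Among cells of 20000 to 30000 UMIs, the r of Pappa2 and Nucb2 was 0.28, 0.34, 0.22 and 0.37 in the order above, that of Dapl1 and Nucb2 was 0.19, 0.18, 0.09 and 0.29, and that of Dapl1 and Gucy2c was 0.01, -0.04, 0.08 and 0.20. The correlations are descriptions and have no p.

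The genes that followed Dapl1 over the 2762 HH HFD beta-like cells were sought among 1251 genes with a mean of at least 50 CPM, with the members left out of the ranking. The highest r were those of Ssr4 (0.45), Scg2 (0.44), Rplp0 (0.42), Fkbp11 (0.42), Sec11c (0.41), Ttr (0.41), Iapp (0.41) and Tmed3 (0.39). Ssr4, Sec11c and Fkbp11 belong to the translocon, signal peptidase and folding machinery of the endoplasmic reticulum, Tmed3 to early secretory transport, and Scg2 and Iapp to secretory granules. The lowest r were those of Camk2n1 (-0.35), Fosb (-0.28), Mt1 (-0.27), Fth1 (-0.24), mt-Co2 (-0.24), Egr1 (-0.24), Gnai2 (-0.24) and Ftl1 (-0.23). Fosb and Egr1 are immediate early genes, Mt1 a metallothionein, and Fth1 and Ftl1 the ferritin chains. In the other libraries the r of Ssr4 was 0.28, 0.29 and 0.24 and that of Scg2 0.04, 0.03 and 0.11, all below the values in HH HFD. Other genes were about as low there as in HH HFD, with Mt1 at -0.30, -0.28 and -0.25 and Ftl1 at -0.25, -0.28 and -0.21. Fosb (-0.14, -0.02 and 0.00) and Egr1 (-0.07, -0.05 and 0.08) were not. The part of the lower Dapl1 level of those libraries in these r was not tested.

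HH HFD beta-like cells were also grouped by thinned Dapl1 UMIs, with levels taken from UMIs not used for the grouping. There were 1635 cells with 0, 644 with 1 and 483 with 2 or more, at median depths of 22373, 25232.5 and 28654 UMIs and with median mitochondrial shares of 4.20%, 3.94% and 3.67%. The part of depth in what follows was not tested. The members were higher in the cells with 2 or more Dapl1 UMIs than in those with 0, with log2 ratios of 1.27 for Spp1 (1.08 to 1.46), 1.13 for Gucy2c (0.92 to 1.33), 0.84 for Ttyh1 (0.64 to 1.03), 0.54 for Nucb2 (0.50 to 0.59) and 0.41 for Pappa2 (0.31 to 0.50). The part in the Spp1 value of the 28 cells that held 53.3% of its UMIs was not tested. In WT HFD, with 76 cells of 2 or more UMIs, the same ratios were 0.17 for Spp1 with an interval that held 0, 1.10 for Gucy2c, 1.02 for Ttyh1, 0.56 for Nucb2 and 0.87 for Pappa2. In WT SCD and HH SCD, with 54 and 73 such cells, they were 0.65 and 0.65 for Nucb2 and 0.70 and 1.31 for Pappa2, no lower than in HH HFD, and 0.29 and 0.92 for Ttyh1, while the intervals of Spp1 and Gucy2c held 0 in both and that of Ttyh1 in WT SCD.

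Genes used as signs of immature or dedifferentiated beta cells were also higher in the HH HFD cells with 2 or more Dapl1 UMIs. The ratio was 1.34 for Serpina7, the thyroxine-binding globulin gene (48.8 against 19.3 CPM), 0.88 for Gc, the vitamin D-binding protein gene (218 against 119 CPM), 0.80 for Ttr, the transthyretin gene (4011 against 2303.5 CPM), and 1.54 for the neuropeptide gene Npy (7.69 against 2.65 CPM). Npy did not rise in steps, at 1.96 CPM in the cells with 1 Dapl1 UMI. The maturity genes Trpm5, Mafa and Slc2a2, which encode a cation channel, a transcription factor of mature beta cells and the main glucose transporter, were lower in the cells with 2 or more Dapl1 UMIs, with ratios of -1.05 (-1.22 to -0.87), -0.52 (-0.59 to -0.44) and -0.36 (-0.44 to -0.28). These 3 were the maturity genes that were 1.5-fold lower in HH HFD than in WT HFD, and others of that list did not follow them, with ratios of 0.39 for Iapp, 0.14 for G6pc2 (0.10 to 0.18) and -0.05 for Pdx1, whose interval held 0. In WT HFD the ratio was 2.12 for Serpina7, 0.29 for Ttr, -0.73 for Npy and -0.37 for Trpm5, and the values of Gc (0.23), Mafa (0.10) and Slc2a2 (-0.02) had intervals that held 0. Over WT HFD cells with 0, 1 and 2 or more Dapl1 UMIs, Npy stood at 13.8, 62.0 and 8.34 CPM. Serpina7 stood at 3.95, 2.64 and 17.1 CPM, the last from 39 UMIs. In WT SCD and HH SCD the ratios were 0.30 and 0.30 for Ttr, -0.23 and -0.01 for Mafa and -0.14 and -0.17 for Slc2a2. The intervals of Mafa in HH SCD and of Slc2a2 in WT SCD held 0, as did those of Serpina7, Gc, Npy and Trpm5 in both. The chaperone-related genes Creld2 and Sdf2l1 were higher by 0.62 and 0.59 in HH HFD and by 0.31 and 0.41 in WT HFD, and in the SCD libraries Creld2 was higher by 0.63 in WT and 0.66 in HH and Sdf2l1 by 0.57 and 0.62, about as much as in HH HFD. Ddit3 and Atf3, transcription factors of the stress response, were at -0.59 and -0.85 in HH HFD and at -0.04 and 0.59 in WT HFD. In the SCD libraries Atf3 was at -0.31 in WT and -0.46 in HH, and the intervals of Ddit3 held 0.

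**Figure D4:**
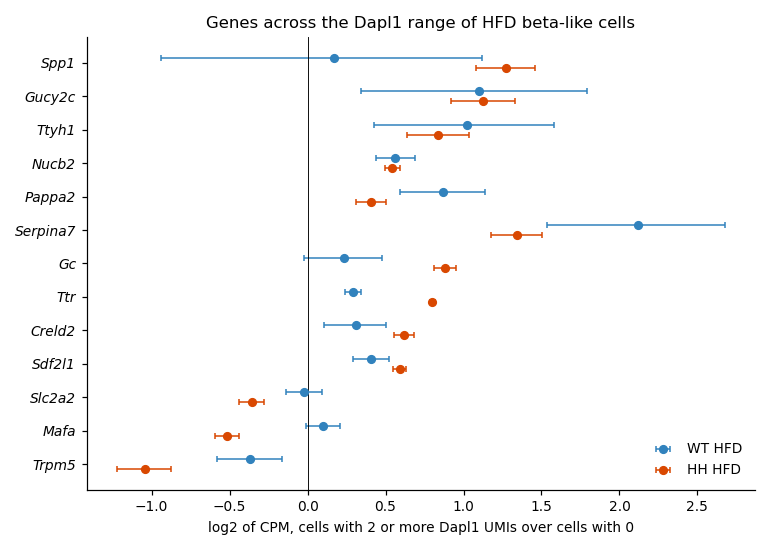
Log2 ratio of CPM (horizontal axis) between beta-like cells with at least 2 thinned Dapl1 UMIs and those with 0, from UMIs not used for the grouping, in WT HFD (76 against 852 cells) and HH HFD (483 against 1635 cells), with 95% intervals. In HH HFD the 5 other members, Serpina7, Gc, Ttr, Creld2 and Sdf2l1 lie above 0 and Slc2a2, Mafa and Trpm5 below.

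In the other endocrine classes the members were placed differently. Dapl1 stood in alpha-like cells at 47.9, 66.8, 59.8 and 52.7 CPM, below beta-like cells of the same library in each case. Its HH over WT log2 ratio there was 0.48 in SCD (0.24 to 0.72) and -0.18 in HFD (-0.43 to 0.06), where the HFD ratio of beta-like cells was 1.5. Delta-like cells held between 2.14 and 9.56 CPM and PP-like cells between 2.02 and 9.32 CPM, with 24 UMIs at most. Per insulin UMI, Dapl1 in delta-like cells was between 0.74 and 2.26 times the value of beta-like cells of the same library, while in alpha-like cells it was between 9.07 and 36.3 times.

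Some non-endocrine classes of HH HFD also held Dapl1 UMIs, at 141 CPM in macrophage-like cells and 132 CPM in stromal-like cells, against 19.6 and 9.71 CPM in WT HFD. Insulin made up 38.9% and 18.2% of the UMIs of these HH HFD cells and 4.78% and 1.85% of those in WT HFD. Per insulin UMI, Dapl1 there was 0.64 and 1.29 times the beta-like value in HH HFD.

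Pappa2 was highest in alpha-like cells, at 457, 464, 407 and 434 CPM, followed by PP-like cells at 156, 136, 192 and 183 CPM. Beta-like cells came next, and the delta-like level of 25.5, 33.3, 23.4 and 45.4 CPM lay below theirs in each library. The alpha-like ratio of HH over WT was 0.02 in SCD (-0.06 to 0.10) and 0.09 in HFD (0.00 to 0.18), far below the 1.24 of beta-like cells. In delta-like cells the HFD ratio was 0.96 (0.45 to 1.48), from 114 and 47 UMIs.

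Spp1 was highest in ductal-like cells, at 11043, 10380, 9679 and 12285 CPM in only 19, 7, 3 and 28 cells. PP-like cells followed at 427, 349, 348 and 307 CPM, where HH was lower than WT by a log2 of -0.29 in SCD (-0.43 to -0.15) and -0.18 in HFD (-0.34 to -0.02). Delta-like cells held 54.1, 52.5, 37.3 and 47.4 CPM. Alpha-like cells held 20.4, 41.8, 30.4 and 88.7 CPM, and there HH was higher than WT by 1.04 in SCD (0.70 to 1.38) and 1.54 in HFD (1.27 to 1.82). In alpha-like cells without the 1% with most Spp1, the levels were 14.0 and 31.6 CPM in SCD and 24.1 and 53.8 CPM in HFD, WT first. Ppy in these remaining alpha-like cells was 10616, 14438, 14575 and 22632 CPM, so it moved with Spp1 between the genotypes, and its part was not tested.

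**Figure D5:**
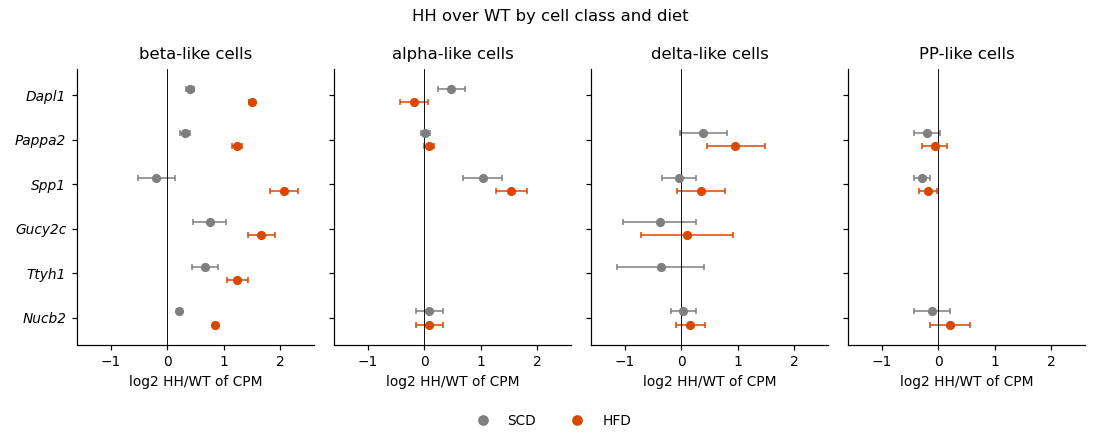
Log2 ratio of HH over WT (horizontal axis) of the 6 genes in beta-, alpha-, delta- and PP-like cells in SCD (grey) and HFD (orange), with 95% intervals. Values are drawn only where both libraries held at least 20 UMIs. In HFD the beta-like ratios lie from 0.86 to 2.07, and in alpha-like cells Spp1 alone lies clearly away from 0.

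Gucy2c was at or near 0 in alpha-like cells (0, 4, 0 and 2 UMIs, where 0 allows up to 0.58 and 0.64 CPM at 3 counts in WT SCD and WT HFD). Delta-like cells held 14.3, 11, 12.0 and 12.8 CPM, above beta-like cells in WT SCD, HH SCD and WT HFD. In HH HFD the beta-like level of 16.4 CPM was within the counting interval of the delta-like level (8.72 to 18.0). Ttyh1 stood at 10.6, 8.25, 6.47 and 7.17 CPM in delta-like cells, above beta-like cells in WT SCD and below them in HH HFD, while the counting intervals of the classes overlapped in HH SCD and WT HFD. Alpha-like cells held 1.28 to 1.94 CPM of Ttyh1, and PP-like cells at most 2 UMIs in a library. Nucb2 was present in every endocrine class, with 98.98, 101, 106 and 118 CPM in delta-like cells, 69.5 to 82.8 CPM in PP-like cells and 53.0 to 60.9 CPM in alpha-like cells. Its HH over WT ratios in those classes ranged from -0.12 to 0.20 and all intervals held 0.

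The partners of each member were examined in lists of related genes in beta-like cells. Of the 18 genes of the IGF axis, 6 reached a mean of 5 CPM and none was 1.5-fold higher or lower in HH in HFD or SCD. Irs2 (-0.58) and Insr (-0.29) had the lowest HFD ratios and Igf2r (0.14) and Igfbp7 (0.06) the highest. Of the 16 genes of guanylyl cyclase and cyclic GMP signalling, only the phosphodiesterase Pde5a reached 5 CPM, at -0.43 in HFD (-0.49 to -0.37) and -0.62 in SCD (-0.67 to -0.56), the latter 1.5-fold lower. Of 15 osteopontin receptors and related proteins 4 did, with Cd44 at 0.73 in HFD (0.55 to 0.92), 1.5-fold higher, and Itgb1 at 0.02, Itgb5 at -0.08 and Itgav at -0.39.

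Nucb2 had one close relative with a like direction. Nucb1 was at 0.41 in HFD (0.34 to 0.48), and in its list of 6 calcium-binding secretory proteins Rcn1 (0.68) was 1.5-fold higher, with Rcn2 at -0.01 and Calu at -0.09. Of 9 tweety and volume-regulated anion channel genes 4 reached 5 CPM, and none was 1.5-fold higher or lower (Ttyh2 -0.04, Lrrc8a -0.07, Lrrc8d -0.11 and Ano6 -0.16 in HFD). The same held for the 5 genes of the DAP family and ribosome dormancy, where Eef2 (0.14), Dap (0.09), Serbp1 (-0.14) and Habp4 (-0.32) marked the range. The median HFD ratio of these 6 lists ran from -0.43 to 0.27, against -0.14 for all genes.

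Other lists described the state of the cells. Of 14 maturity genes, 3 were 1.5-fold lower in HH in HFD (Trpm5 -1.34, Slc2a2 -0.97 and Mafa -0.66) and none in SCD, while Iapp (0.53) and Ins1 (0.00) were the highest. Among the dedifferentiation genes the HFD ratio was 1.36 for Gc, 1.04 for Ttr and -2.66 for Npy. It was 2.46 for Serpina7, which stood at 4.11, 3.21, 4.76 and 26.2 CPM and reached a mean of 5 CPM only through HH HFD. Of 15 genes of the endoplasmic reticulum stress response, Creld2 (1.13) and Sdf2l1 (0.73) were 1.5-fold higher and Atf3 (-0.67) and Ddit3 (-0.61) lower, and none was in SCD. Of 11 genes of tissue dissociation and heat shock, 8 were 1.5-fold lower in HH HFD than in WT HFD, with a median of -0.74 (Hspa1a -1.74 and Hspa1b -1.74 lowest, Hsph1 -0.46 and Dusp1 -0.48 highest), and none was in SCD. That list differed between the HFD libraries beside all 6 members, and its part was not tested.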

How the data were processed

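Per the labels, the authors counted UMIs with Cell Ranger 6.0 on mm10 from 10x 3-prime libraries and deposited filtered matrices of raw counts per gene and barcode. The study's own removal of ambient RNA and doublets was not repeated here. Barcodes with under 10% mitochondrial UMIs, 3000 to 50000 UMIs and 2000 to 5000 genes were kept. Scrublet's own threshold marked too few cells, so the cells with the highest doublet scores were removed at 0.8% per 1000 cells (33 to 154 per library). Cells were clustered together (scanpy 1.11.5, 3000 variable genes without the 6 members, 30 components, Leiden resolution 1) and named X-like from marker lists. UMIs were summed per class and library and scaled to CPM. Intervals are exact Poisson for CPM, conditional binomial for ratios and Clopper-Pearson for shares, at 95%. With 1 library per group, no test was made. The ratio intervals were tested on simulated data. The members and lists were chosen with earlier results of these data known. The named genes were the members, the 2 highest and 2 lowest HFD ratios of each list among genes of at least 5 CPM, and the 8 highest and 8 lowest correlations with Dapl1. One gene that this rule names is not reported here. Other genes of the Dapl1 grouping were chosen after their values were seen. Promoter windows were found for 5 of the 6 members. Cell types were rebuilt from counts and may differ from those of the study.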

Additional observations from a re-analysis of the deposited data

Results flagged for a closer look

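The diet ratio of Pappa2 in beta-like cells differed in sign between the genotypes, with a log2 of HFD over SCD of -0.22 in WT and 0.71 in HH. The counting intervals of both were clear of 0, but the difference was not tested, and the 2 ratios have 1 library per group. In alpha-like cells the same held for Dapl1, at 0.32 in WT (0.07 to 0.57) and -0.34 in HH (-0.57 to -0.11), opposite to the higher HH HFD level in beta-like cells. This was not tested either.

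Barcodes rich in insulin that failed the filters, some of which enter the report only through the alternative with a looser filter on cells, were examined as well. In HFD the level of HH against WT was 291 against 119 CPM for Dapl1, 85.2 against 65.4 for Pappa2, 69.3 against 23.2 for Spp1, 16.2 against 6.76 for Gucy2c, 18.8 against 8.60 for Ttyh1 and 289 against 199 for Nucb2. In SCD it was 52.7 against 40.5 CPM for Dapl1, 6.71 against 4.05 for Ttyh1 and 149 against 130.3 for Nucb2, while the counting intervals overlapped for Pappa2 (48.5 against 47.6), Spp1 (11.6 against 11.3) and Gucy2c (4.77 against 3.18). These were 1447, 878, 2365 and 1614 barcodes in WT SCD, HH SCD, WT HFD and HH HFD, with mitochondrial shares of 14.7%, 12.2%, 15.7% and 11.6%.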

How the results depend on the processing

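All results rest on 1 library per group, so no replicate could be left out. No paired analysis was possible because the groups share no more than 1 replicate number. The Dapl1 ratio of HH over WT stayed above 0 under every alternative run. In HFD it was 1.42 with a looser filter, 1.63 with median-of-ratios scaling, 1.41 with equal weight for each cell, 1.66 among cells of 20000 to 30000 UMIs and 0.51 outside cluster 5, which was chosen after seeing the data. In SCD it was 0.49 with median-of-ratios scaling, 0.62 among cells of 20000 to 30000 UMIs and 0.48 without the 1% of cells with most Dapl1, also chosen after seeing the data. At 2-fold in place of 1.5-fold, 0 members passed in SCD. The share of HH HFD cells with a Dapl1 UMI was 68.7% at 10000 UMIs and 82.6% without thinning, and that with 3 or more members 41.4%, 64.3%, and 8.95% among cells of 20000 to 30000 UMIs. Of 211 other values, 166 stayed within the counting interval, 43 moved past it, and 2 whose interval was clear of 0 changed sign, the WT diet ratio of Pappa2 with a looser filter (0.13) and that of Spp1 with the insulin gate (-0.72). The SCD ratio of Spp1, whose interval held 0, was also positive with doublets kept (0.36) and without the 1% of cells with most Spp1 (0.0026). The cause was not tested. Subtracting free RNA left no Spp1 in WT SCD, so it has no value there.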
